A study of Homo sapiens with 12 samples.

Results

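Homologous recombination and the repair routes around it were described here through 55 genes, taken by name as members of these pathways. All 55 were present among the 22170 genes of the table, and all 55 were among the 14179 genes with at least 10 normalised counts in at least 3 libraries, which were the genes tested. RNA was measured by sequencing in SKBR3, an established HER2-positive breast cancer cell line labelled as wild type, in 4 groups of 3 libraries. Cells were kept in DMSO, the solvent control, or in 5 µM GSK126, an inhibitor of the histone methyltransferase EZH2, from day -6, were split on day -3 and were plated on day -1 at 350000 cells on a 6 cm plate. On day 0 the DMSO cells went on in DMSO or received 100 nM lapatinib, an inhibitor of the HER2 and EGFR kinases, and the GSK126 cells went on in 5 µM GSK126 alone or together with 100 nM lapatinib. RNA was taken 24 h later, on day 1, so that GSK126 had acted since day -6 and lapatinib for 24 h. Every group is the same cell line. Nothing in the labels tells separate cultures from repeat libraries of 1 culture, so the spread behind the p-values may be technical.

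Homologous recombination repairs a broken chromosome by copying the intact sister chromatid, which is available only after replication. The broken ends are sensed and cut back, the recombinase is loaded on the single strand by BRCA1, PALB2 and BRCA2, the strand invades the sister, and helicases and nucleases take the joined molecules apart. The Fanconi anaemia proteins use the same machinery to repair crosslinks between strands. End joining also repairs broken chromosomes, but does not need a sister chromatid. Mismatch repair and base excision repair deal with other damage and do not need a sister chromatid either. Many of these genes are known to be transcribed mainly in late G1 and S phase.

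Each library held 17693103 to 30349466 reads in genes, the fewest in replicate 1 of the combination of both drugs. That library also stood apart in the genes it detected, 21669, where the other 11 detected 15059 to 17338. The added spike-in RNAs fell into 3 compositions, with all DMSO and lapatinib libraries and replicates 2 and 3 of the combination in the first, GSK126 replicate 1 alone in the second, and GSK126 replicates 2 and 3 with combination replicate 1 in the third. Replicates also differed more in the GSK126 group than elsewhere, with a median SD over the 55 genes of 0.43 on the log2 scale, against 0.21 with DMSO, 0.13 with lapatinib and 0.23 with both drugs. The luminal epithelial markers of the line summed to 527327 normalised counts or more in every library, and PTPRC, the pan-leukocyte marker, stayed at or below 1.53 outside combination replicate 1, where it was 19.9. Of the 5 endothelial markers 2, CDH5 and VWF, were abundant enough to be tested, and the list's sum was 206 to 270 in DMSO, 186 to 238 in lapatinib, 934 to 1561 in GSK126 and 784 to 1109 with both drugs. The higher sums were carried by CDH5, with means of 141, 65.9, 1266 and 906 in these groups. VWF went the other way with GSK126, with means of 94.9, 141, 39.5 and 42.6, and PECAM1 was near 0. The 5 immune markers summed to 196 to 226 in DMSO, 253 to 330 in lapatinib, 323 to 476 in GSK126 and 656 to 782 with both drugs, carried by CD68. The 6 fibroblast markers, of which 3 were abundant enough to be tested, summed to 249 to 392 in DMSO, 202 to 245 in lapatinib, 142 to 242 in GSK126 and 70.4 to 172 with both drugs, carried by COL1A1. MALAT1, a nuclear RNA, took 1.29% to 2.09% of gene reads in DMSO, 2.18% to 2.67% in lapatinib, 1.05% to 4.04% in GSK126 and 2.34% to 4.29% with both drugs. Whether these RNAs have a part in the results below was not tested.

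Lapatinib lowered most of the repair genes within 24 h. Of the 55, 37 (67.3%) were lower than in DMSO at an adjusted p under 0.05 by limma, against 14.3% of all genes tested, and 31 of them fell by at least 2-fold. None was higher, against 13.7% of all genes tested. An unadjusted p under 0.05 in either direction was found in 40 of the 55, against 5639 of the 14179 genes tested. Both edgeR and DESeq2 also called 37 lower and 0 higher. The median change of the 55 was -1.08 on the log2 scale, with 0.038 for all genes. The mean level with lapatinib was 47.8% of the DMSO mean for the median gene, from 9.34% in EXO1 to 194% in PMS2. In 42 of the 55 the 3 lapatinib libraries all lay below the 3 DMSO libraries, against 27.2% of all genes tested, and in 3, RAD52, ATM and PMS2, all lay above them, against 28.2%. Scaled to the spike-ins, under which the median of all genes moved to -0.49, the median of the 55 was -1.62 and 53 of them were below 0, while 22 were called lower, against 5.19% of all genes tested; the 37 kept their sign in all 21 alternatives. The spike-ins took 0.588% to 0.745% of reads in DMSO and 0.860% to 1.42% with lapatinib, and their part in the result was not tested. In bulk RNA, fewer cells in a phase of the cell cycle and less RNA per cell cannot be told apart.

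By role, lower levels were called for 10 of 13 strand exchange genes, 9 of 11 Fanconi anaemia genes, 5 of 7 helicases and nucleases and 4 of 5 genes of single-strand break and base excision repair. They were called for 3 of 6 checkpoint genes, 3 of 6 end joining genes, 1 of 2 mismatch repair genes, 1 of 4 genes of end sensing and resection, and HELLS. Among the roles of 4 or more genes, median log2 changes ran from -1.76 in the helicases and nucleases, -1.53 in strand exchange and -1.22 in the Fanconi anaemia group to -0.019 in end sensing and resection. HELLS alone was at -3.19, and the 2 mismatch repair genes had a median of -0.019. The order depends on how genes were assigned. EXO1, at -3.38, also acts in resection but was counted with the helicases and nucleases. Differences between the roles were not tested. As a share of all gene reads the 55 genes together took 0.261% to 0.320% in DMSO and 0.194% to 0.213% with lapatinib.

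**Figure D1:**
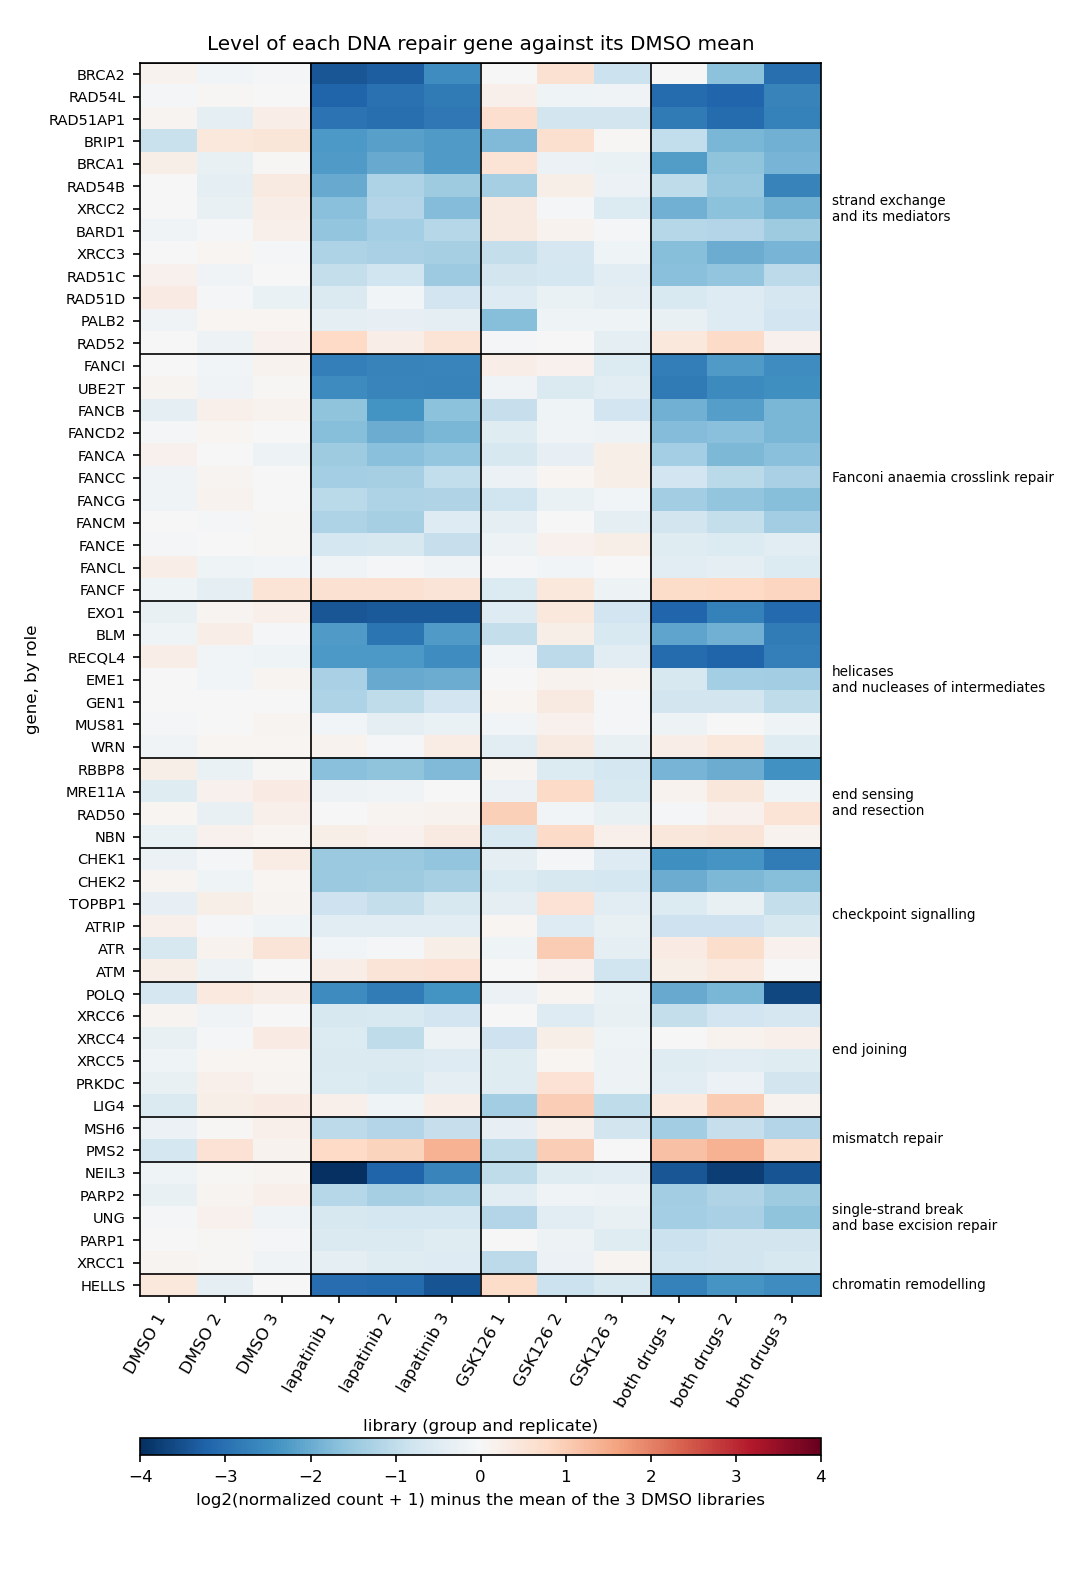
Log2(normalised count + 1) of each of the 55 repair genes (rows, by role) in each of the 12 libraries (columns), minus that gene's mean in the 3 DMSO libraries; blue is lower and red is higher. The lapatinib columns, without and with GSK126, are blue for most strand exchange, Fanconi anaemia and helicase genes, while RAD50, NBN, ATR and WRN stay pale.

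Promoter sequences were looked up because so many members fell together, and 48 of the 55 matched an entry of the RefSeq table (GRCh38.p14; 1 of them, MRE11A, by a synonym), while RAD54B, FANCI, WRN, RECQL4, NBN, XRCC5 and PRKDC were not matched. The windows ran from 250 bases before the annotated start to 50 after it and were searched on both strands. The letters TTTCGCGC or TTTGGCGC, a form of the E2F site, were found in 6 of the 48 promoters (12.5%), against 1.48% of the 21957 protein-coding entries of that length. These 6 were FANCC, EXO1, GEN1, TOPBP1, XRCC6 and HELLS, and each of them was lower with lapatinib. The letters were thus in 6 of 33 matched genes called lower and in 0 of 15 matched genes not called. The median log2 change with lapatinib was -1.11 for the 6 genes with the letters and -1.12 for the 42 without. The CCAAT box letters, CCAAT, were in 24 of 48 (50%), against 34.7% of protein-coding entries, and in 15 of 33 called lower and 9 of 15 not called. The letters TTTGAA of the cell cycle homology region were in 7 of 48 (14.6%), against 12.4%. The letters were counted as a description, with no test, and a match is not evidence of a bound site. Other forms of the E2F site were not searched, so promoters without these letters may hold them. For each gene only 1 annotated start was searched, so letters at any other start of the gene would be missed. For BRCA1 the window was chr17:43170278-43170577. The protein-coding entries were not limited to genes expressed in these cells.

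Below are 180 bases of 6 promoters on GRCh38.p14, from 150 before the start to 30 from the start on, 5′ to 3′ on the gene's own strand. The first 4 hold the E2F letters, in capitals. RAD54L fell without them, with a log2 change of -3.01 beside -3.38 in EXO1 and -3.19 in HELLS, and its capitals mark CCAAT or its reverse complement; RAD50, which was not called, holds neither and is all in lower case. The E2F letters begin 76 bases before the start in HELLS and 7 before it in TOPBP1, and 1 base after it in GEN1 and 4 after it in EXO1.
EXO1 (chr1:241848054-241848233, plus strand): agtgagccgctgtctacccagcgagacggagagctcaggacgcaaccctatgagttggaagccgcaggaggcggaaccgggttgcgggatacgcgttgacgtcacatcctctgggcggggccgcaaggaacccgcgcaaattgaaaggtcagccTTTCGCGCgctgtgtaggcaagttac
HELLS (chr10:94545638-94545817, plus strand): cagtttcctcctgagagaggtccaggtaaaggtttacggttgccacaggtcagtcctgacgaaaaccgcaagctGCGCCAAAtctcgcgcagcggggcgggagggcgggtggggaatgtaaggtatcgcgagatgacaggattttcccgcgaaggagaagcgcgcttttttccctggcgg
GEN1 (chr2:17753719-17753898, plus strand): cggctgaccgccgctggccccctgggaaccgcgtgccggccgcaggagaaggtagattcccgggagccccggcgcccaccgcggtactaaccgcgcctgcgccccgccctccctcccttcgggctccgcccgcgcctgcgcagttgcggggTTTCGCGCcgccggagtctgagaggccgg
TOPBP1 (chr3:133661912-133662091, minus strand): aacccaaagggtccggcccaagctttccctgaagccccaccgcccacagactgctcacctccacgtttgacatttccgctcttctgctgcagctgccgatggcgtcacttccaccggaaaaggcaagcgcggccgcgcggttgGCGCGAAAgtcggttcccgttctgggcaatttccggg
RAD54L (chr1:46247538-46247717, plus strand): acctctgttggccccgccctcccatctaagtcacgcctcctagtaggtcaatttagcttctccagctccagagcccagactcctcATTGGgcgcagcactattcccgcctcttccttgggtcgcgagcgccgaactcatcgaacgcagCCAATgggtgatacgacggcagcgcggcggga
RAD50 (chr5:132556827-132557006, plus strand): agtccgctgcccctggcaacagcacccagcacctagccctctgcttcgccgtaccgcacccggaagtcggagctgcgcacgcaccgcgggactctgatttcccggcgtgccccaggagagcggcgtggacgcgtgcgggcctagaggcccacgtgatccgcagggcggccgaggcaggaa

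Among the genes of strand exchange, BRCA1, the E3 ligase partner of BARD1 that directs breaks into recombination, stood at 468, 317 and 411 normalised counts in the DMSO libraries and at 81.3, 95.8 and 81.6 with lapatinib. Every lapatinib library was far below every DMSO library, and 21.6% of the mean level was left (log2 change -2.18 ± 0.25 (SE), adjusted p = 5.3e-05). BRCA2, which loads the recombinase, went from 103, 87 and 89.7 to 7.83, 8.51 and 16, a log2 change of -3.06 ± 0.61 (adjusted p = 0.00276), again without overlap. BARD1 fell with its partner, with a log2 change of -1.36 ± 0.18 (adjusted p = 0.000119). PALB2, which bridges BRCA1 and BRCA2, did not pass the test. It read 315, 361 and 361 in DMSO and 261, 276 and 268 with lapatinib, where each library was below each DMSO library but by little (log2 change -0.36 ± 0.33, adjusted p = 0.437). The SE pools the spread of all 4 groups, and PALB2 read 105, 307 and 304 with GSK126. PALB2 was also not called in 19 of the 21 alternatives and was called lower in the rest.

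RAD54L, a DNA translocase that drives strand invasion, had the smallest adjusted p of the 55, with 1183, 1309 and 1279 in DMSO and 136, 156 and 175 with lapatinib (log2 change -3.01 ± 0.18, adjusted p = 2.51e-07). RAD51AP1, an accessory factor of the recombinase, went from 1543, 1094 and 1697 to 182, 173 and 193 (log2 change -2.95 ± 0.31, adjusted p = 2.61e-05). In both genes about 12.4% to 12.7% of the DMSO level remained. The helicase gene BRIP1 fell too, with a log2 change of -2.25 ± 0.55, as did RAD54B, the paralogue of RAD54L, with -1.56 ± 0.48. The RAD54B call was the less firm of these: its adjusted p of 0.0279 became 0.0666 without DMSO replicate 1, 0.0987 without DMSO replicate 3, 0.109 without lapatinib replicate 1 and 0.0632 without lapatinib replicate 3, in a range of 0.000456 to 0.109 over 21 alternatives. Of the paralogues that assist the recombinase, XRCC2, XRCC3 and RAD51C fell, with log2 changes of -1.53, -1.28 and -1.08, and RAD51D was at -0.49 ± 0.24 (adjusted p = 0.152). RAD52, which anneals single strands, lay the other way, with 112, 94.9 and 124 in DMSO and 192, 132 and 159 with lapatinib; the groups did not overlap, but the change of 0.53 ± 0.22 did not pass the test (adjusted p = 0.0937).

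In the Fanconi anaemia group the changes farthest below 0 were those of UBE2T and FANCI, which act at the monoubiquitination step of the pathway. UBE2T, the ubiquitin-conjugating enzyme of the pathway, went from 2179, 1825 and 2113 in DMSO to 358, 327 and 315 with lapatinib (log2 change -2.61 ± 0.16, adjusted p = 3.44e-07). FANCI, a substrate of that step, went from 3308, 3062 and 3667 to 502, 528 and 539 (log2 change -2.67 ± 0.20, adjusted p = 1.58e-06). FANCD2, the other substrate, fell with a log2 change of -1.84 ± 0.15. FANCL, the E3 ligase that acts with UBE2T, read 505, 373 and 392 in DMSO and 379, 409 and 381 with lapatinib, so that the groups overlapped and the change of -0.11 ± 0.15 did not pass the test (adjusted p = 0.626); its sign turned to 0.060 under total count scaling. Of the core complex around FANCL, FANCA, FANCB, FANCC, FANCE, FANCG and FANCM were lower, with log2 changes of -0.76 (FANCE) to -1.89 (FANCB). FANCF, an adaptor in that complex, read 113, 97.8 and 187 in DMSO and 195, 196 and 183 with lapatinib, with 1 DMSO library inside the lapatinib range (log2 change 0.58 ± 0.27, adjusted p = 0.129).

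Among the helicases and nucleases, EXO1, which cuts back broken ends over long distances, dropped from 463, 612 and 655 to 52.9, 54.3 and 54.4 (log2 change -3.38 ± 0.28, adjusted p = 2.62e-06). With 9.34% of the DMSO level left it kept the smallest share of the 55, and its lapatinib libraries were nearly equal. RECQL4, a helicase of replication and repair, went from 3716, 2877 and 2724 to 632, 630.1 and 545 (log2 change -2.35 ± 0.22, adjusted p = 9.41e-06). BLM, the Bloom syndrome helicase, fell with a log2 change of -2.48 ± 0.31, EME1 with -1.76 ± 0.28 and GEN1, a resolvase of joined chromatids, with -1.00 ± 0.17. MUS81, the nuclease subunit that pairs with EME1, did not pass the test, with -0.26 ± 0.14 (adjusted p = 0.177). WRN, the Werner syndrome helicase of the same RecQ family as BLM and RECQL4, read 157, 184 and 186 in DMSO and 194, 164 and 213 with lapatinib, with overlapping groups (0.11 ± 0.27, adjusted p = 0.785); under spike-in scaling its sign turned, to -0.43.

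End sensing and resection split inside a single step. RBBP8, which encodes CtIP, the cofactor that starts resection, went from 1234, 871 and 1089 to 329, 347 and 309 (log2 change -1.68 ± 0.23, adjusted p = 0.000163). The 3 subunits of the MRN complex that CtIP works with were not called. RAD50, its ATPase, read 1964, 1525 and 2128 in DMSO and 1831, 1982 and 2042 with lapatinib (0.073 ± 0.27, adjusted p = 0.87). NBN, the subunit that recruits ATM, read 5874, 8038 and 7490.2 and 8313, 7945 and 9052 (0.25 ± 0.27, adjusted p = 0.513). MRE11A, the nuclease, was at -0.11 ± 0.31 (adjusted p = 0.823). In these 3 genes the lapatinib libraries overlapped the DMSO libraries, and under spike-in scaling RAD50 and NBN were at -0.47 and -0.29.

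In checkpoint signalling the 2 effector kinases fell and the 2 apical kinases were not called. CHEK2, the effector kinase downstream of ATM, went from 1058, 877 and 1042 to 355, 367 and 390.4 (log2 change -1.41 ± 0.14, adjusted p = 1.59e-05). CHEK1, the effector downstream of ATR, went from 734, 826 and 1059 to 307, 307 and 285 (log2 change -1.52 ± 0.19, adjusted p = 7.75e-05). Neither gene overlapped between the groups. ATR, the kinase activated by single-stranded DNA, read 299, 519.7 and 668 in DMSO, a wide spread, and 433, 456 and 549.9 with lapatinib (0.020 ± 0.34, adjusted p = 0.973), and it was at -0.52 under spike-in scaling. ATM, the kinase activated by double-strand breaks, had its lapatinib libraries above its DMSO libraries, with a change of 0.45 ± 0.23 that did not pass the test (adjusted p = 0.163). ATRIP, the partner of ATR, was at -0.44 ± 0.18 (adjusted p = 0.0804). TOPBP1, the activator of ATR, was lower, with a log2 change of -0.82 ± 0.27, close to the threshold (adjusted p = 0.0366), and its adjusted p was 0.109 without DMSO replicate 2, 0.106 without DMSO replicate 3 and 0.0955, 0.114 and 0.0633 without lapatinib replicates 1, 2 and 3, in a range of 0.000205 to 0.196 over 21 alternatives.

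End joining held both a steep fall and genes that were not called. POLQ, the polymerase of microhomology-mediated end joining, went from 206, 431 and 395 to 55.8, 45.8 and 61.9 (log2 change -2.57 ± 0.42, adjusted p = 0.000673). XRCC6, which encodes the Ku70 subunit of the end-binding Ku dimer, went from 13992, 11735 and 12960.0 to 8201, 8368 and 7549, a change of -0.68 ± 0.15 (adjusted p = 0.00541) without overlap. XRCC5, the Ku80 subunit, fell with a log2 change of -0.56 ± 0.14 (adjusted p = 0.0114; 0.179 with total count scaling and 0.226 with spike-in scaling, from 1.35e-05 over the alternatives). PRKDC, the DNA-dependent kinase that Ku recruits, had all lapatinib libraries below all DMSO libraries at -0.51 ± 0.24 but did not pass the test (adjusted p = 0.133). LIG4, the ligase of the pathway, read 90.7, 158 and 169.7 in DMSO and 154, 118 and 163 with lapatinib (0.094 ± 0.50, adjusted p = 0.91), and -0.44 under spike-in scaling. Its partner XRCC4 was at -0.58 ± 0.30 (adjusted p = 0.17).

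In mismatch repair, MSH6, which recognises base mismatches, went from 1808, 2186 and 2424 to 1017, 944 and 1110.2 (log2 change -1.05 ± 0.22, adjusted p = 0.00331). PMS2, a subunit of the endonuclease that follows recognition, read 88.3, 216 and 159 in DMSO and 252, 267 and 379 with lapatinib. Its lapatinib libraries were all higher and its DMSO libraries spread widely, and the change of 1.02 ± 0.44 did not pass the test (adjusted p = 0.103), and PMS2 has near-identical pseudogene copies between which reads may have been split. PMS2 was also not called in 18 of the 21 alternatives and was called higher in the rest.

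In single-strand break and base excision repair, NEIL3, a glycosylase that removes oxidised bases in replicating DNA, went from 237, 275 and 289 to 6.85, 27.7 and 42.2 (log2 change -3.64 ± 0.48, adjusted p = 0.00013). That change was the farthest below 0 of the 55, but without lapatinib replicate 1, the library at 6.85, it was -2.92 (adjusted p = 4.45e-05, range 1.93e-15 to 0.00139 over 21 alternatives), behind EXO1 at -3.37. PARP2, a poly(ADP-ribose) polymerase that senses nicks, went from 1077, 1419 and 1529 to 601, 533 and 557 (log2 change -1.24 ± 0.16, adjusted p = 0.000112). PARP1, its more abundant relative and the target of PARP inhibitors, fell with a log2 change of -0.55 ± 0.14 (adjusted p = 0.00984). The scaffold XRCC1 read 995, 953 and 843 and 719.8, 666 and 646. Its groups did not overlap, yet -0.46 ± 0.23 did not pass the test (adjusted p = 0.164). XRCC1 was also not called in 18 of the 21 alternatives and was called lower in the rest. UNG, the uracil glycosylase, went from 2528, 2897 and 2368 to 1671, 1595 and 1576 without overlap (-0.68 ± 0.20, adjusted p = 0.0237). Its call was lost, with adjusted p-values of 0.0563 and 0.0761 without DMSO replicates 1 and 2 and 0.0599, 0.0694 and 0.0747 without lapatinib replicates 1, 2 and 3 (range 0.000119 to 0.222 over 21 alternatives). HELLS, a chromatin remodeller needed for DNA methylation, went from 973, 549 and 720.4 to 87.2, 85.1 and 65.7, leaving 10.6% of the DMSO level (log2 change -3.19 ± 0.35, adjusted p = 3.24e-05).

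**Figure D2:**
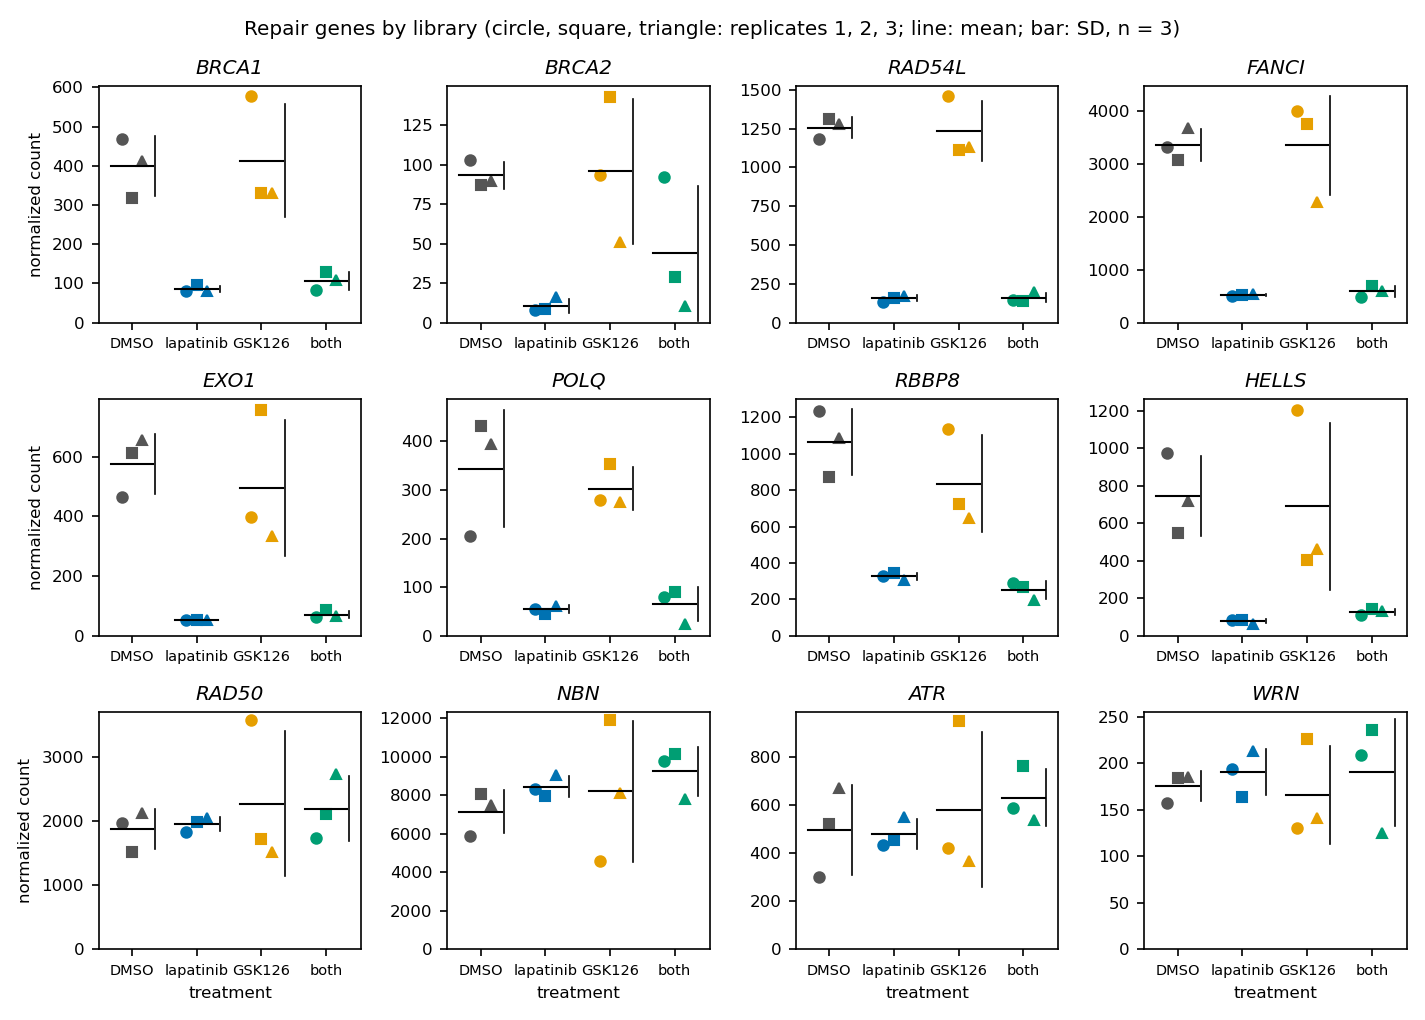
Normalised counts (vertical axes, each from 0) of 12 repair genes in the 4 treatment groups, 3 libraries each; circles, squares and triangles are replicates 1, 2 and 3, the line is the mean and the bar the SD. In BRCA1, RAD54L, FANCI, EXO1, POLQ, RBBP8 and HELLS the lapatinib and combination libraries lie below all others, while RAD50, NBN, ATR and WRN overlap; BRCA2 in combination replicate 1, at 92.1, stands with the DMSO libraries.

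Levels between genes were compared per kilobase of exon, with lengths from GENCODE release 29 for all 55 genes. In DMSO the Ku gene XRCC6 had the highest mean, 4379 ± 384 normalised counts per kilobase (SD, n = 3), followed by PARP1 with 2691 ± 95.9, UBE2T with 2246 ± 208, XRCC5 with 1965 ± 183 and NBN with 1467 ± 231. The lowest were BRCA2 with 7.77 ± 0.715, RAD51D with 9.59 ± 2.01 and BRIP1 with 14.5 ± 6.47. The abundant damage sensors Ku and PARP1 thus stood over 2 orders of magnitude above the recombinase loader BRCA2 on this scale. The exon length is that of all annotated isoforms together, so it overstates the transcript length of genes with many isoforms.

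Of 62 repair genes outside the 55, lapatinib lowered 20 and raised 3, with a median log2 change of -0.17. Of all genes tested 14.3% were lower and 13.7% higher, the background for each list below. In nucleotide excision repair XPC, a damage sensor, was higher (0.60 ± 0.11, adjusted p = 0.002). Translesion synthesis had 3 of 7 lower, with MAD2L2 at -1.42 ± 0.27, adjusted p = 0.00219. Base excision and nick repair had 3 of 11 lower, led by LIG1 at -1.88 ± 0.15, adjusted p = 2.62e-06 and FEN1 at -2.51 ± 0.22, adjusted p = 4.99e-06, the ligase and the flap nuclease that also finish Okazaki fragments. Of 26 other double-strand break genes 13 were lower and 2 higher, with RMI2, a partner of BLM, at -1.75 ± 0.15, adjusted p = 4.26e-06, while in mismatch repair the 3 other genes lay between -0.45 (MSH3) and 0.30 (PMS1) and did not pass the test. Of 23 DNA replication genes, 23 were lower, with a median log2 change of -1.98 and CDC45, a part of the replicative helicase, at -3.44 ± 0.16, adjusted p = 7.06e-08. Of 16 genes of G1 and the E2F family 11 were lower and 1 higher, and MYBL2, a regulator of late cell cycle genes, was at -3.93 ± 0.17, adjusted p = 6.55e-08. With GSK126 alone 4 of the 62 and 3 of the 23 replication genes were lower, against 3.93% of all genes tested. With both drugs against GSK126 14 of the 62 were lower and 2 higher and 22 of the 23 were lower, against 9.71% lower and 8.48% higher of all genes tested. The differences between these lists and the 55 genes were not tested.

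With GSK126 alone few repair genes were called. Of the 55, 2 (3.64%) were lower than in DMSO and 0 were higher, against 3.93% and 10.7% of all genes tested, so the share of lower members was near the background. An unadjusted p under 0.05 was found in 6 of the 55, against 3719 of the 14179 genes tested. By edgeR 1 was lower, against 3.74% of all genes tested, and by DESeq2 4 were lower, against 5.64%. By both 0 were higher, against 10.4% and 12.8%. The median log2 change was -0.25, with -0.045 for all genes, and 44 of the 55 changes were below 0. The 3 GSK126 libraries did not share the shift: their medians over the 55 genes, against the DMSO mean, were -0.35, 0.013 and -0.30. In 8 of the 55 all GSK126 libraries lay below all DMSO libraries, against 9.59% of all genes tested, and in 0 above them, against 14.4%.

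CHEK2 was the first of the 2, with 1058, 877 and 1042 in DMSO and 678, 637 and 611 with GSK126, close together in the GSK126 libraries and below every DMSO library (log2 change -0.62 ± 0.14, adjusted p = 0.00938). XRCC3, the recombinase paralogue, was the other, with 860.5, 880.4 and 789.8 and 432, 534 and 745, where the GSK126 libraries spread widely up to just under the lowest DMSO library (log2 change -0.60 ± 0.19, adjusted p = 0.0482). UNG read 1146, 1949 and 2111 with GSK126, all below its DMSO libraries, and just missed the threshold at -0.63 ± 0.20 (adjusted p = 0.055). BRCA1, with 578, 331 and 329.7, and RAD54L, with 1458, 1111 and 1129.7, overlapped DMSO. No GSK126 library shared its spike-in composition with a DMSO library. With the composition as a term in the fit 0 of the 55 were called, with CHEK2 at an adjusted p of 0.531, against 0.388% lower and 2.76% higher of all genes tested. In that fit the step from the first to the third composition rests on combination replicate 1 against combination replicates 2 and 3. The count was also 0 when only these groups were fitted, against 0.465% lower and 5.66% higher of all genes tested, and under spike-in scaling, against 0.084% and 3.89%. It was 11, all lower, with library weights, against 12.1% of all genes tested, and 7, all lower, without GSK126 replicate 1, against 9.45% of all genes tested. The XRCC3 call was lost in 15 of 21 alternatives and the CHEK2 call in 3. For XRCC3 these included the fits without DMSO replicate 1, 2 or 3 (adjusted p = 0.126, 0.122 and 0.0895) and without GSK126 replicate 1 or 2 (0.0844 and 0.0847), in a range of 0.0058 to 1 over 21 alternatives.

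Lapatinib lowered repair genes in cells that had been kept in GSK126 as well. Of the 55, 32 (58.2%) were lower with both drugs than with GSK126 alone, against 9.71% of all genes tested, and 1 was higher, against 8.48%. The median log2 change was -0.95, with 0.041 for all genes. In 34 of the 55 all combination libraries lay below all GSK126 libraries, against 14% of all genes tested, and in 2, RAD52 and FANCF, above them, against 15.6%. The 32 genes were all among the 37 that fell in cells without GSK126, which is 100% of the 32 and 86.5% of the 37. BRCA2, BRIP1, RAD54B, TOPBP1 and XRCC5 made up the rest of the 37.

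BRCA1 read 578, 331 and 329.7 with GSK126 and 83.4, 129 and 108 with both drugs, without overlap (log2 change -1.91 ± 0.25, adjusted p = 0.00023). RAD54L went from 1458, 1111 and 1129.7 to 147, 139 and 196 (-2.94 ± 0.18, adjusted p = 4.8e-07). EXO1, the resection nuclease, went from 398, 757 and 334 to 62.2, 86.6 and 65.5 (-2.70 ± 0.28, adjusted p = 2.57e-05). In BRCA1 and RAD54L the combination libraries overlapped the lapatinib libraries, while in EXO1 they all lay above them, at 133% of the lapatinib mean. HELLS went from 1205, 403 and 462 to 111, 142 and 130.1 (-2.25 ± 0.35, adjusted p = 0.000738). BRCA2 was the exception in spread, with 93.1, 143 and 51.3 and 92.1, 29.1 and 10.6: combination replicate 1 stood at the DMSO level while the other 2 were lower (-1.48 ± 0.61, adjusted p = 0.111). Without that replicate the change was -2.25 (adjusted p = 0.0156).

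FANCF, the Fanconi core adaptor, was the gene that was higher, with 87.6, 172 and 110.5 in GSK126 and 210.3, 220.0 and 231 with both drugs, where every combination library exceeded every GSK126 library (0.89 ± 0.27, adjusted p = 0.0386). That call was lost without GSK126 replicate 1 or 3 (adjusted p = 0.0946 and 0.0918) and without combination replicate 1, 2 or 3 (0.0909, 0.11 and 0.0929), in a range of 0.000594 to 0.85 over 22 alternatives, and its change was -0.15 under spike-in scaling. Inside the third spike-in composition, with combination replicate 1 against GSK126 replicates 2 and 3, 24 of the 55 were lower and 0 higher by limma with the spread pooled over all groups, against 5.51% and 2.58% of all genes tested. That contrast has 1 library in its combination arm, the one with 21669 genes detected.

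The 2 lapatinib comparisons share no library, so their changes were set side by side. Over the 55 genes they had a Pearson r of 0.95 and a Spearman rho of 0.96 as a description, since genes of 1 library share its depth, and 52 of the 55 had the same sign. In 43 of the 55 the change was below 0 in both. The interaction, which tests whether the lapatinib change differed with GSK126, called 0 of the 55 by limma, against 0.0212% of all genes tested, and 0 by edgeR or DESeq2. An unadjusted p under 0.05 by limma was found in 2 of the 55, against 836 of the 14179 genes tested. These 2 were CHEK1, at -0.68 ± 0.26 (adjusted p = 0.718), and XRCC4, at 0.96 ± 0.43 (adjusted p = 0.82). The median interaction of the 55 was 0.19, with 0.021 for all genes, and 43 of the 55 were above 0, which for a gene that fell means a smaller fall with GSK126 than without; under spike-in scaling the median was -0.31. With library weights 14 were called, all above 0, where 12.3% of all genes tested were called below 0 and 10.8% above 0.

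**Figure D3:**
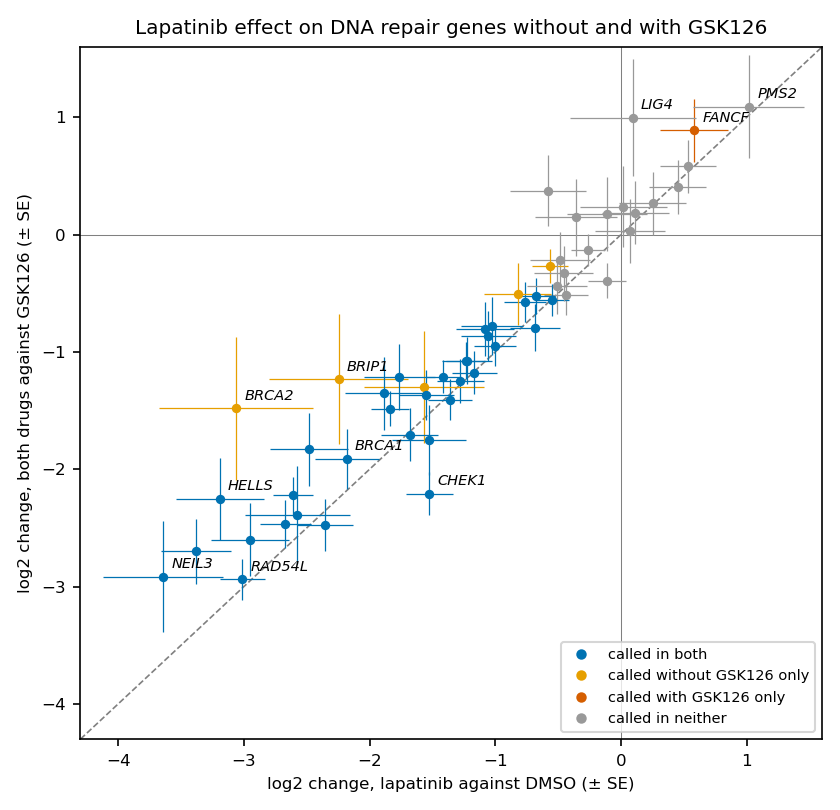
Log2 change with lapatinib in cells without GSK126 (horizontal axis) and in cells with GSK126 (vertical axis) for the 55 repair genes, each ± SE; the dashed line marks equal change and colours mark in which comparison a gene was called. Most points with a fall lie just above the line, CHEK1 lies below it, and BRCA2 and BRIP1 lie farthest above it among the genes that fell.

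Of the 55 genes, CHEK1 and UNG passed the test between both drugs and lapatinib alone, and each was lower with both. The 2 genes (3.64%) compare with 6.35% of all genes tested that were lower, and 0 were higher, against 11.5%. An unadjusted p under 0.05 was found in 10 of the 55, against 4054 of the 14179 genes tested. By edgeR 2 were lower and 0 higher, against 5.89% and 11.9% of all genes tested. By DESeq2 5 were lower and 1 higher, against 8.23% and 13.5%. The median log2 change of the 55 was 0.036, with -0.025 for all genes, and it was -0.43 under spike-in scaling. CHEK1 read 307, 307 and 285 with lapatinib and 158, 168 and 124 with both drugs, 50.2% of the lapatinib mean and without overlap (-1.00 ± 0.19, adjusted p = 0.00195). GSK126 without lapatinib left CHEK1 at 678, 816 and 598, which overlapped DMSO (-0.32 ± 0.19, adjusted p = 0.307). The CHEK1 call was lost under spike-in scaling, where its change was -1.46 (adjusted p = 0.201, from 5.17e-07 over 22 alternatives) and stood inside the first spike-in composition, with combination replicates 2 and 3, at -1.04 (adjusted p = 0.00371).

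UNG read 1671, 1595 and 1576 with lapatinib and 1007, 1058 and 851 with both drugs (-0.74 ± 0.20, adjusted p = 0.0215), again without overlap. Its adjusted p was 0.0797, 0.0655 and 0.0595 without lapatinib replicates 1, 2 and 3, 0.0552 without combination replicate 1 and 0.086 without combination replicate 3, in a range of 1.39e-06 to 0.363 over 22 alternatives. CHEK2 and XRCC3, the genes called lower with GSK126 alone, read 249, 282 and 301 and 260.1, 211 and 233 with both drugs. Each was below its lapatinib libraries, at -0.42 ± 0.14 (adjusted p = 0.0554) and -0.57 ± 0.19 (adjusted p = 0.0528), just short of the threshold. Combination libraries lay below all lapatinib libraries in 11 of the 55, against 23.6% of all genes tested, and above them in 7, against 23.7%. The 7 were BRIP1, FANCE, FANCF, EXO1, XRCC4, XRCC5 and HELLS.

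**Figure D4:**
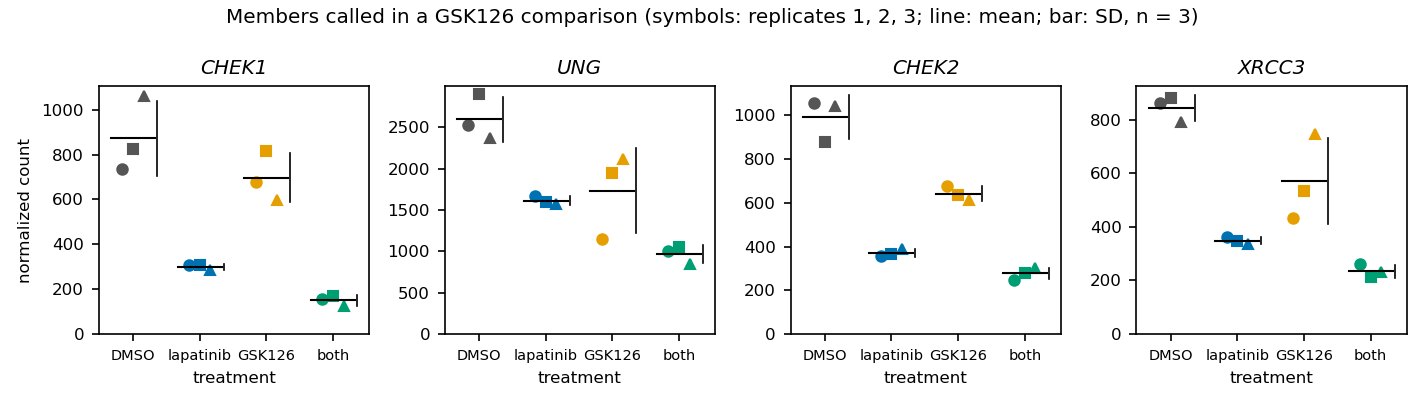
Normalised counts (vertical axes, each from 0) of CHEK1, UNG, CHEK2 and XRCC3 in the 4 treatment groups, 3 libraries each; circles, squares and triangles are replicates 1, 2 and 3, the line is the mean and the bar the SD. In all 4 genes the combination libraries are the lowest, and CHEK1 with both drugs sits between 124 and 168 against 285 to 307 with lapatinib.

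Against DMSO, the 2 drugs together lowered 38 of the 55 (69.1%), against 20.1% of all genes tested, and raised 1, FANCF (0.79 ± 0.27, adjusted p = 0.0334), against 22%. The median log2 change was -1.16, and the 3 combination libraries had medians of -0.95, -1.19 and -1.39. In 40 of the 55 they all lay below the DMSO libraries, against 26.8% of all genes tested, and in 3, RAD52, FANCF and PMS2, above them, against 30.3%. The farthest below 0 were NEIL3 at -3.56 ± 0.48, RECQL4 at -3.00 ± 0.22, EXO1 at -3.00 ± 0.28 and RAD54L at -2.98 ± 0.18. CHEK1, with 17.2% of its DMSO mean, was at -2.53 ± 0.19 (adjusted p = 5.15e-07). The FANCF call was lost without DMSO replicate 1 or 2 (adjusted p = 0.103 and 0.123) and without any 1 combination replicate (0.0701, 0.082 and 0.0796), in a range of 0.00852 to 0.795 over 22 alternatives, and its change was -0.21 under spike-in scaling. This comparison uses the DMSO libraries of the lapatinib comparison, so the counts of the 2 are not independent.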

How the data were processed

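RNA of 12 SKBR3 libraries (4 groups of 3) was sequenced by the submitters as single-end reads of 75 bases. Per the submitters' processing notes the tools were STAR and DESeq2 and the build hg19; versions, read counter, annotation and strand setting are not given in the sources used here. The authors deposited a signal per gene, read counts divided by a size factor per library, for 22256 features, of which 86 are spike-in RNAs; 25 gene symbols had been turned into dates. Whole reads were recovered for 100% of values (within 0.01).

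Values were tested as log2(value + 1) with limma 3.58.1 in R 4.3.3 (4 group means, all 12 libraries, 8 residual degrees of freedom, trended prior variance, two-sided), with Benjamini-Hochberg adjustment over 14179 genes at 10 or more in at least 3 libraries and a threshold of 0.05. Log2 changes are on that scale, which understates changes of low genes; errors are SE. Normalised counts are given per library and SD over n = 3. Alternatives were other pseudocounts, filters, scalings and fits, edgeR 4.0.16 and DESeq2 1.42.0 on the recovered reads, leaving out each library, and contrasts inside 1 spike-in composition, chosen after seeing the data. The code was tested on simulated data. Members given library by library were BRCA1, BRCA2, in each role the 2 with the smallest adjusted p and the 1 with the smallest absolute change with lapatinib, and those called in a GSK126 comparison; others were added for contrast after their values were seen. The members and lists were chosen with earlier results of these data known. The result of 1 gene outside the 55 is not reported here.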

Additional observations from a re-analysis of the deposited data

How the results depend on the processing

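The count of repair genes called stayed within 1.5 times of the reported one in 20 of 21 alternatives for lapatinib against DMSO (37, range 22 to 45), in all 22 for both drugs against GSK126 (33, range 23 to 46) and in all 22 for both drugs against DMSO (39, range 33 to 48). Where there are 22, spike-in composition as a term and the contrasts inside 1 composition are the same fit under 2 names. Their values cannot differ, so they are not separate checks. Spike-in scaling gave 22 for lapatinib against DMSO, with the median of all genes at -0.49 (0.038 as reported) and that of the 55 at -1.62 (-1.08 as reported), and 22 of the 37 were called under every alternative, 31 under every one but spike-in scaling. For GSK126 against DMSO (2) the count was 1 with no filter on low values, upper quartile scaling, total count scaling, a constant prior variance, edgeR or the replicate block, where 8.22% to 14.3% of all genes tested were called. It was 0 with spike-in scaling, with only the groups compared or with spike-in composition as a term (3.15% to 6.13% of all genes tested), 4 with DESeq2 (18.4%), 11 with array weights, and 1 to 7 when 1 library was left out (10.3% to 23%). For both drugs against lapatinib (2, with 17.9% of all genes tested called) the count is given beside the share of all genes that was called. It was 0 with spike-in scaling (2.81%), 4 with TMM scaling (18%), 5 with spike-in composition as a term or within the composition (20.1% in each) and 6 with DESeq2 (21.8%). It was 9 with only the groups compared (35.9%), 28 with array weights, and 1 to 2 when 1 library was left out (12.3% to 14.4%). The interaction (0) gave 14 with array weights. Array weights called 29.2%, 60.1% and 23.2% of all genes tested in these 3 comparisons. Leaving out 1 library gave 34 to 36 for lapatinib against DMSO, 27 to 35 for both drugs against GSK126 and 34 to 36 for both drugs against DMSO. Spike-in scaling turned the median of the 55 to -0.43 for both drugs against lapatinib and to -0.31 for the interaction.

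For lapatinib against DMSO the sign turned in genes that were not called: WRN (-0.43), NBN (-0.29), RAD50 (-0.47), ATR (-0.52) and LIG4 (-0.44) under spike-in scaling, FANCL (0.060) under total count scaling, and RAD50 (-0.0023), ATR (-0.26) and LIG4 (-0.10) with array weights. ATR was at -0.045 with edgeR and -0.048 with DESeq2. With 1 library left out, FANCL ran from -0.19 to 0.025, RAD50 from -0.068 to 0.17, ATR from -0.30 to 0.27 and LIG4 from -0.19 to 0.26; the turns came without DMSO replicate 1 (FANCL, ATR and LIG4), without DMSO replicate 2 (RAD50) and without lapatinib replicate 3 (ATR, -0.082). The cause was not tested.

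Same-numbered libraries did not deviate together (r from -0.33 to 0.35 over 18 pairs, 4 above 0.1), so the numbers were not taken as pairs. With the replicate block, counts were 37 for lapatinib against DMSO, 1 for GSK126 against DMSO, 29 for both drugs against GSK126, 2 for both drugs against lapatinib, 40 for both drugs against DMSO and 0 for the interaction. Depth, at 17693103 reads in genes or more, limits the lowest genes, among them BRCA2 with 7.83, 8.51 and 16 normalised counts with lapatinib.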
